A study of Homo sapiens with 6 samples.

Results

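The genes described here were the ZNF zinc finger genes expressed in KGN, an established human line derived from a granulosa cell tumour of the ovary. A gene was taken where its name in the count table was ZNF, a number and at most 1 further letter, and where its mean over the 6 libraries was at least 10 CPM, a count scaled to the library total; the members were thus chosen by their level in these libraries, and not by their change. Of 512 ZNF names among 20030 gene names, 171 met this rule, and all 171 passed the filter on low counts and were tested. ZNF616 had a mean of 7.21 CPM and was added by name because of its change, so its values are given as a description with no test. The first group was 3 libraries of wild-type KGN cells transfected with siRNA that targets the long noncoding RNA SNHG5, and the second was 3 libraries of the same cells transfected with negative control siRNA. All 6 were grown in DMEM/F12 with serum, harvested 48 h after transfection and made into SMARTER mRNA-seq libraries from 1 µg of total RNA. The labels do not say how many siRNA sequences were used, and KGN is a single tumour line. The study asked which transcripts change when SNHG5 is knocked down. SNHG5 itself was not analysed here.

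ZNF genes encode proteins with C2H2 zinc fingers, small zinc-bound folds that mostly read DNA, with longer arrays of fingers reading longer sites. In many of them a KRAB domain lies before the fingers. KRAB binds TRIM28, which brings the histone methyltransferase SETDB1 and heterochromatin proteins to the bound site, and many KRAB zinc finger proteins are known for silencing retroelements. Other ZNF proteins activate genes, or act on RNA, ribosomes or the mitotic spindle. Many human KRAB genes lie in clusters of related neighbours, above all on chromosome 19, which arose by repeated duplication.

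Total counts were 18232634 to 22088913 per library, and 3 counts, taken as the detection floor, were 0.136 to 0.165 CPM. Member genes had 103 to 5070 counts in a library, so none was near that floor, which covers counting error only. SNHG5 siRNA replicate 2 stood apart from its group. Its counts differed from those of replicates 1 and 3 by a chi-square of 8.62 and 8.82 per degree of freedom, against 1.91 between replicates 1 and 3 and 3.10 to 4.41 between control siRNA libraries. It was the lowest library of its group for 82 of the 171 members, or 48%, against 41.3% of all tested genes with a mean of at least 10 CPM. Of 14 granulosa cell markers, 9 had a mean of at least 1 CPM, FOXL2 and FSHR among them, while AMHR2, CYP11A1, CYP19A1, INHA and WT1 were under it. The summed granulosa markers were at 3012 to 3318 CPM in SNHG5 siRNA libraries and 4449 to 4512 CPM in control siRNA libraries. That sum is led by KRT18, at means of 2444 and 3280 CPM with SNHG5 and control siRNA, and FST, at 309 and 821 CPM, while FOXL2 (28.6 and 25.3 CPM), KRT8 (141.4 and 124.9 CPM), NR5A1 (38.5 and 35.8 CPM) and STAR (22.4 and 19.2 CPM) had the higher mean with SNHG5 siRNA. Of the blood cell markers, CD3E, LYZ and HBB were at 0 counts in all libraries, and PTPRC averaged 1.91 CPM with SNHG5 siRNA and 2.35 CPM with control siRNA. The endothelial list summed to 16.8 to 19.4 CPM with SNHG5 siRNA and 33.2 to 38.0 CPM with control siRNA, mostly KDR, with CDH5 at 0, while VWF averaged 1.74 CPM with SNHG5 siRNA and 1.59 CPM with control siRNA. The fibroblast list summed to 4802 to 5110 CPM with SNHG5 siRNA and 6004 to 6365 CPM with control siRNA, mostly COL1A1, with LUM at 0, while COL1A2 averaged 274 CPM with SNHG5 siRNA and 179 CPM with control siRNA. The ovarian surface epithelium list summed to 26.8 to 32.8 CPM with SNHG5 siRNA and 36.9 to 39.3 CPM with control siRNA. KRT7, PAX8 and CDH1 of that list had the lower mean with SNHG5 siRNA, and EPCAM and MUC16, both under 1 CPM, the higher. The genes of the granulosa, endothelial and fibroblast lists did not all move one way. In these bulk samples, a smaller share of cells and less RNA per cell cannot be told apart. The part of the shifts of these lists in the changes of the ZNF genes was not tested.

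Of the 171 expressed ZNF genes, 54 were higher and 20 were lower in SNHG5 siRNA cells, and 97 did not pass (edgeR's quasi-likelihood test, 2-sided, Benjamini-Hochberg adjusted p under 0.05 over 12508 tested genes). Those are 31.6% and 11.7% of the members. Over all tested genes 20.3% were higher and 19.9% were lower, and over the 9474 tested genes with a mean of at least 10 CPM, as the members have, 24.1% were higher and 20.2% were lower. In either direction 43.3% of the members passed, against 40.2% of all tested genes and 44.3% of those at 10 CPM or more. The share of members called in either direction was near the background, with more of them higher and fewer of them lower than in the background. The median log2 fold change of the members was 0.04, with a range of -0.69 to 1.27, against a median of -0.01 over all tested genes. With upper quartile scaling the split of the members became 44 higher and 31 lower and their median -0.0031, while that of all tested genes became 2055 higher and 3089 lower. Without SNHG5 siRNA replicate 2, 56 members were higher and 22 were lower.

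The 3 CPM values of each group did not overlap for 55 members that were higher with SNHG5 siRNA and for 31 that were lower. Over all tested genes 25.6% did not overlap and were higher and 24.2% did not overlap and were lower, and over those at 10 CPM or more the shares were 29.6% and 24%. The summed CPM of the members was 5503, 5326 and 5548 in SNHG5 siRNA replicates 1, 2 and 3 and 5259, 5134 and 5177 in control siRNA replicates 1, 2 and 3. The sums of the groups did not overlap. The rule used the mean over all libraries, so a gene near the threshold could enter through the group in which it was high. Of the members, 153 had at least 10 CPM in each group, and of these 43 were higher and 17 were lower. A further 13 were under 10 CPM with control siRNA alone, of which 11 were higher, and 5 were under 10 CPM with SNHG5 siRNA alone, of which 3 were lower. Just inside the threshold were ZNF786, ZNF776 and ZNF699 at 10.1 CPM each, and just outside it were ZNF205 at 9.91, ZNF44 at 9.78 and ZNF248 at 9.69 CPM.

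**Figure D1:**
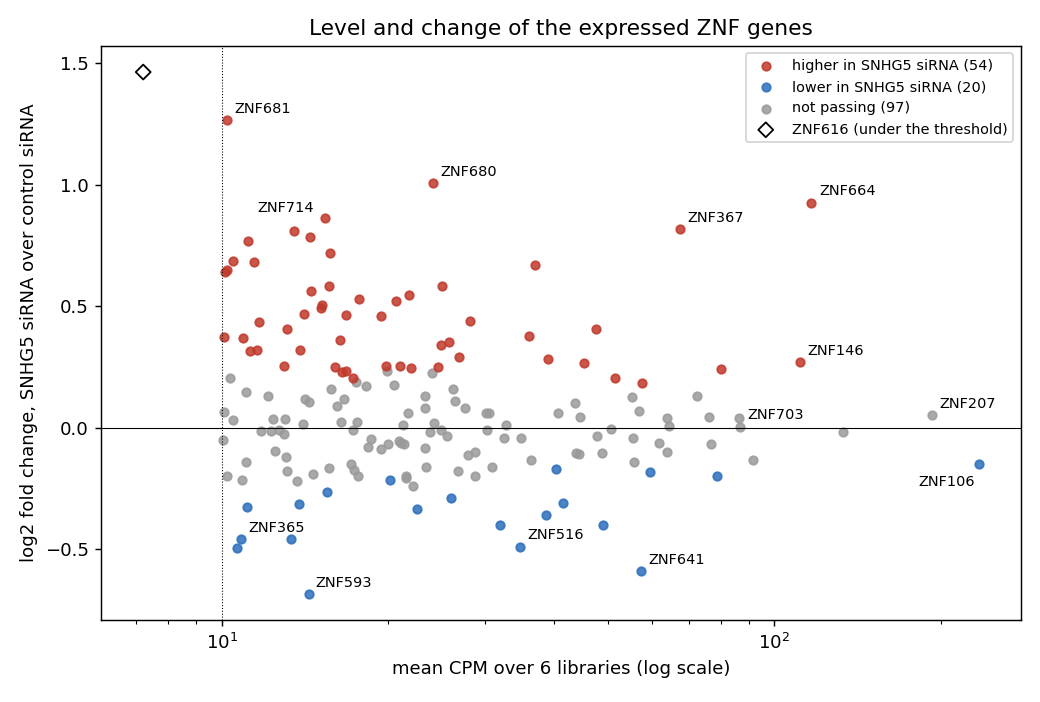
Each point is 1 expressed ZNF gene, with its mean CPM over the 6 libraries on a log x axis and its log2 fold change, SNHG5 siRNA over control siRNA, on the y axis. The 54 higher genes reach 1.27, the 20 lower genes reach -0.69, and the dotted line marks the threshold of 10 CPM, left of which only ZNF616 is drawn.

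The largest rise was that of ZNF681, a KRAB zinc finger gene of chromosome 19 (chr19:23739195-23758891, GRCh38, minus strand). It had 14.2, 15.9 and 13.2 CPM in SNHG5 siRNA replicates 1, 2 and 3, against 5.71, 5.06 and 7.24 CPM in control siRNA replicates 1, 2 and 3. Every SNHG5 siRNA library lay well above every control siRNA library, a fold of 2.41 (log2 1.27, SE 0.12, edgeR adjusted p = 1.5e-07). Its control siRNA mean was 6.004 CPM, so it met the rule through the SNHG5 siRNA group alone. ZNF680, a KRAB gene of chromosome 7 (chr7:64519884-64563106), had 30.7, 34.7 and 31.3 CPM with SNHG5 siRNA, against 15.7, 15.9 and 16.5 CPM with control siRNA. The groups did not overlap, and the fold was 2.01 (log2 1.01, SE 0.08, edgeR adjusted p = 1.59e-08).

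ZNF664 (chr12:123971845-124015439) had the highest CPM of the 8 members with the largest rises, and its protein has 9 fingers and no KRAB pattern. It had 153.1, 148.2 and 156.4 CPM with SNHG5 siRNA, against 81.5, 79.2 and 79.1 CPM with control siRNA. The spread within each group was small beside the gap between them, with a fold of 1.901 (log2 0.93, SE 0.05, edgeR adjusted p = 1.12e-10). Its exons overlap those of other annotated genes on both strands, CCDC92 on the opposite one, and the counting could not be checked for strand. ZNF714 of chromosome 19, in which no KRAB pattern was found, had 20.9, 16.5 and 22.1 CPM with SNHG5 siRNA, against 10.50, 10.47 and 11.7 CPM with control siRNA (log2 0.86, SE 0.11). SNHG5 siRNA replicate 2 was the lowest of its group there but still lay above all control siRNA libraries. ZNF367, with only 2 fingers (chr9:96385941-96418329), had 90.2, 83.8 and 85.1 CPM with SNHG5 siRNA, against 49.3, 47.7 and 49.5 CPM with control siRNA (log2 0.82, SE 0.06, edgeR adjusted p = 2.44e-09).

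ZNF100, ZNF254 and ZNF41 completed the 8 largest rises, and all 3 are KRAB genes. ZNF100 had 17.8, 15.1 and 18.95 CPM with SNHG5 siRNA, against 9.91, 10.0 and 9.49 CPM with control siRNA (log2 0.81, SE 0.10). ZNF254 had 19.5, 17.7 and 17.7 CPM with SNHG5 siRNA, against 10.4, 10.47 and 10.97 CPM with control siRNA (log2 0.78, SE 0.09). ZNF41, on the X chromosome, had 14.9, 14.2 and 13.1 CPM with SNHG5 siRNA, against 7.76, 7.47 and 9.60 CPM with control siRNA (log2 0.77, SE 0.11). In none of the 3 did the groups overlap, and their edgeR adjusted p values were 2.32e-06, 8.9e-07 and 1.29e-05. ZNF100 and ZNF41, at control siRNA means of 9.81 and 8.28 CPM, also met the rule through the SNHG5 siRNA group alone. Words of 50 bases were taken from the ZNF100 transcript with the longest coding sequence. Of these, 13.5% also occur in transcripts of other genes that do not overlap ZNF100, so part of its level is uncertain.

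The largest falls were smaller than the largest rises. The largest fall was that of ZNF593 (chr1:26169871-26170873), a short gene with 1 finger whose yeast relative Bud20 takes part in export of the large ribosomal subunit. It had 9.55, 11.9 and 11.7 CPM with SNHG5 siRNA, against 18.1, 17.7 and 17.3 CPM with control siRNA. The groups did not overlap, with a fold of 0.622 (log2 -0.69, SE 0.09, edgeR adjusted p = 1.17e-05). ZNF641 (chr12:48337180-48351414), a KRAB gene with 5 fingers, had 46.9, 42.0 and 48.4 CPM with SNHG5 siRNA, against 69.8, 67.9 and 68.7 CPM with control siRNA. Its 3 SNHG5 siRNA values again lay below every control siRNA value (log2 -0.59, SE 0.06, edgeR adjusted p = 5.16e-07).

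ZNF516, a repressor that works with corepressor complexes and is known in mouse for its part in brown fat, had 27.8, 27.1 and 31.7 CPM with SNHG5 siRNA, against 41.3, 40.4 and 39.4 CPM with control siRNA (log2 -0.49, SE 0.07, edgeR adjusted p = 3.04e-05). ZNF778 had 9.37, 8.76 and 8.50 CPM with SNHG5 siRNA, against 11.4, 12.8 and 13.3 CPM with control siRNA (log2 -0.49, SE 0.10). Neither gene had overlapping groups. ZNF584 and ZNF365, a centrosome-linked protein in which no C2H2 finger was found, each fell by 0.46 on the log2 scale. ZNF778 and ZNF365, under 10 CPM with SNHG5 siRNA, met the rule through the control siRNA group alone. ZNF384, which binds AT-rich promoter elements, and ZNF511 each fell by 0.40, and for all 4 the groups did not overlap. ZNF511 shares 507 exon bases with the readthrough gene ZNF511-PRAP1 on its own strand, so reads of the pair may be divided between them.

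**Figure D2:**
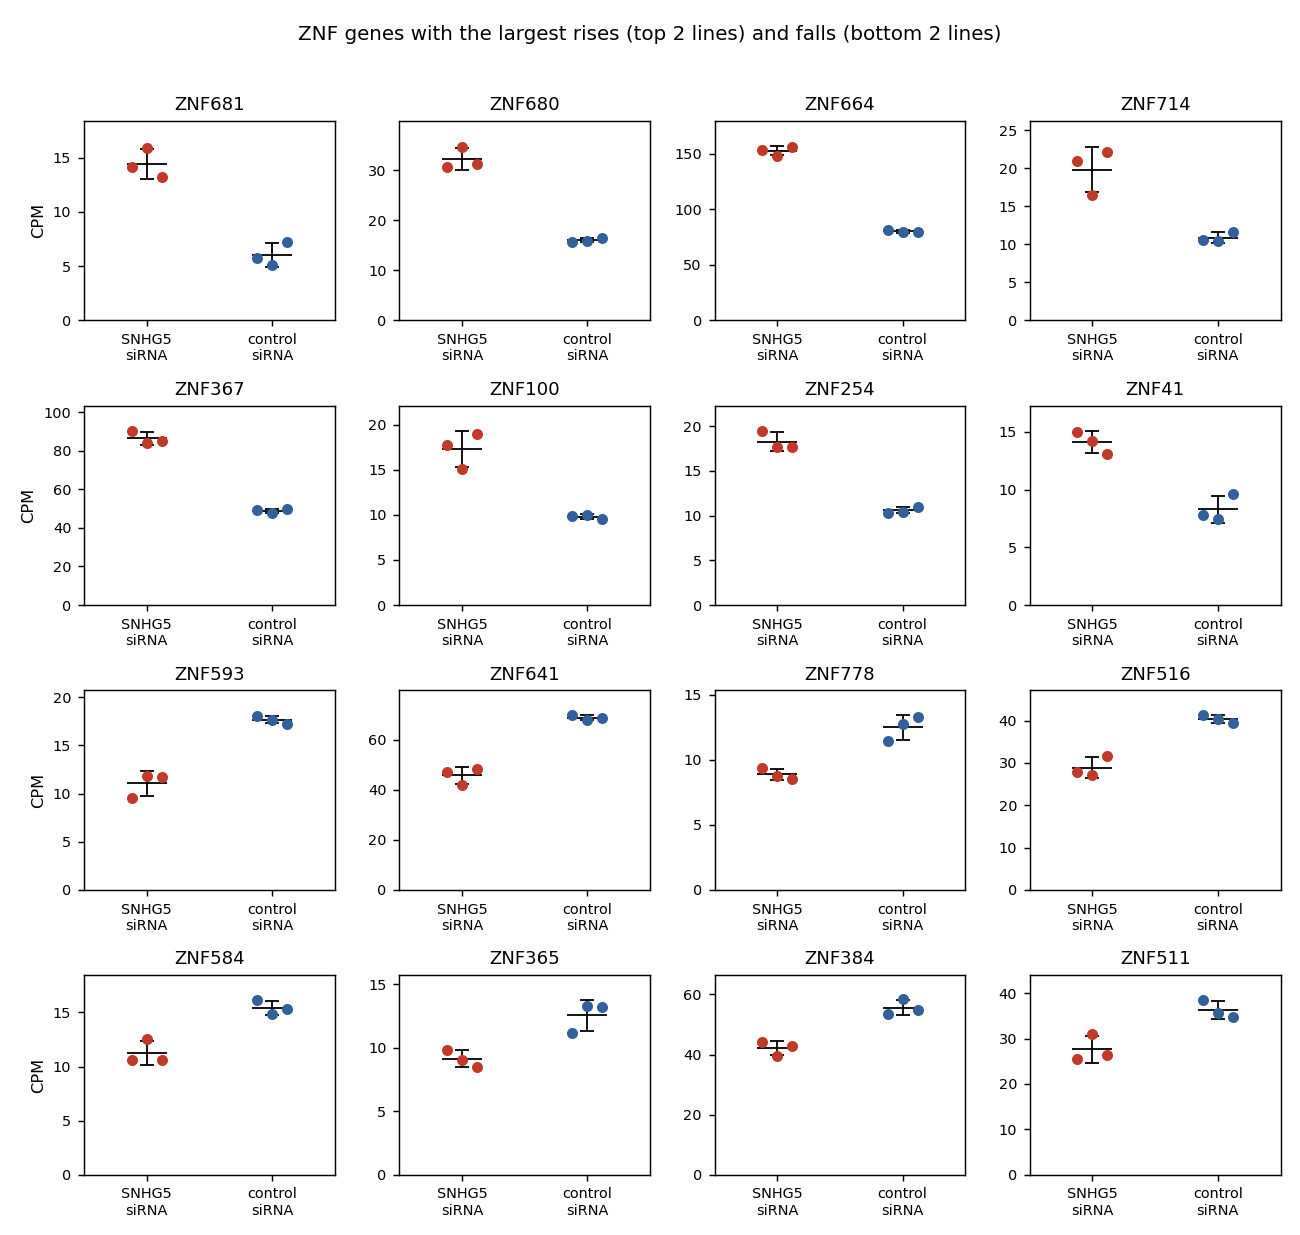
CPM (y axes, from 0) of the 8 ZNF genes with the largest rises and the 8 with the largest falls, with SNHG5 siRNA libraries on the left of each panel and control siRNA libraries on the right; points are libraries, and bars are mean ± SD (n = 3). In all 16 panels the groups do not overlap, as for ZNF681, at 13.2 to 15.9 CPM against 5.06 to 7.24 CPM. ZNF681, ZNF100 and ZNF41 met the rule through the SNHG5 siRNA group alone, and ZNF778 and ZNF365 through the control siRNA group alone.

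ZNF616, the gene described beside the members, is a KRAB gene with 22 fingers (chr19:52113091-52139922, minus strand). It had 10.1, 11.4 and 10.3 CPM with SNHG5 siRNA, against 4.05, 3.68 and 3.73 CPM with control siRNA, a fold of 2.76 (log2 1.46). The value exceeds the largest rise among the members, but the gene was chosen for that change.

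Members with a KRAB domain rose far more often than they fell. A KRAB pattern was found in the translated coding sequences of 76 members. Of these, 36 (47.4%) were higher and 4 (5.26%) were lower, with a median log2 fold change of 0.18. Over tested genes at 10 CPM or more, 24.1% were higher and 20.2% were lower. All 11 of the genes that were higher and that met the rule through the SNHG5 siRNA group alone were among the 36. Of the 61 KRAB members with at least 10 CPM in each group, 25 were higher and 3 were lower, with a median of 0.12. Of the 95 members without the pattern, 18 (18.9%) were higher and 16 (16.8%) were lower, with a median of -0.01. With upper quartile scaling their split was 13 higher and 24 lower, and that of the KRAB members was 31 higher and 7 lower. The background moved too under that scaling, to 1843 higher and 2444 lower of the 9474 tested genes at 10 CPM or more. The 4 KRAB genes that fell were ZNF641, ZNF778, ZNF584 and ZNF655. The summed CPM of the KRAB members was 1675, 1610 and 1667 in SNHG5 siRNA libraries and 1491, 1462 and 1464 in control siRNA libraries. The groups did not overlap in that sum, whereas the sum over the other members was 3829, 3716 and 3881 CPM with SNHG5 siRNA and 3769, 3672 and 3714 CPM with control siRNA, which overlapped. Without SNHG5 siRNA replicate 2, 37 KRAB members were higher and 5 were lower. A SCAN pattern, a domain through which some zinc finger proteins pair, was found in 9 members, of which ZNF263 and ZNF202 were higher and none was lower.

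The split between the directions also moved with the number of fingers. Of 7 members in which no finger was found, 0 were higher and 2 (28.6%) were lower. Of 35 with 1 to 4 fingers, 4 (11.4%) were higher and 8 (22.9%) were lower. Of 54 members with 5 to 9 fingers, 13 (24.1%) were higher and 8 (14.8%) were lower. Of 43 with 10 to 14 fingers, 20 (46.5%) were higher and 2 (4.65%) were lower. Of 32 members with at least 15 fingers, 17 (53.1%) were higher and 0 were lower, and their median log2 fold change was 0.25. Of the 27 of these with at least 10 CPM in each group, 13 were higher and 0 were lower, with a median of 0.18. The shares of tested genes at 10 CPM or more were 24.1% higher and 20.2% lower. Across the 171 members, Spearman's rho between finger number and log2 fold change was 0.44. That rho is a description across genes of the same libraries, and KRAB genes carry many of the long arrays. With 10 to 14 fingers, the higher genes ZNF681, ZNF100, ZNF141 and ZNF343 met the rule through the SNHG5 siRNA group alone. So did ZNF766, ZNF559 and ZNF776 with 5 to 9 fingers. The lower genes ZNF365, ZNF830 and ZNF778 met it through the control siRNA group alone. The rho and the shares of these sets were not computed without such genes.

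**Figure D3:**
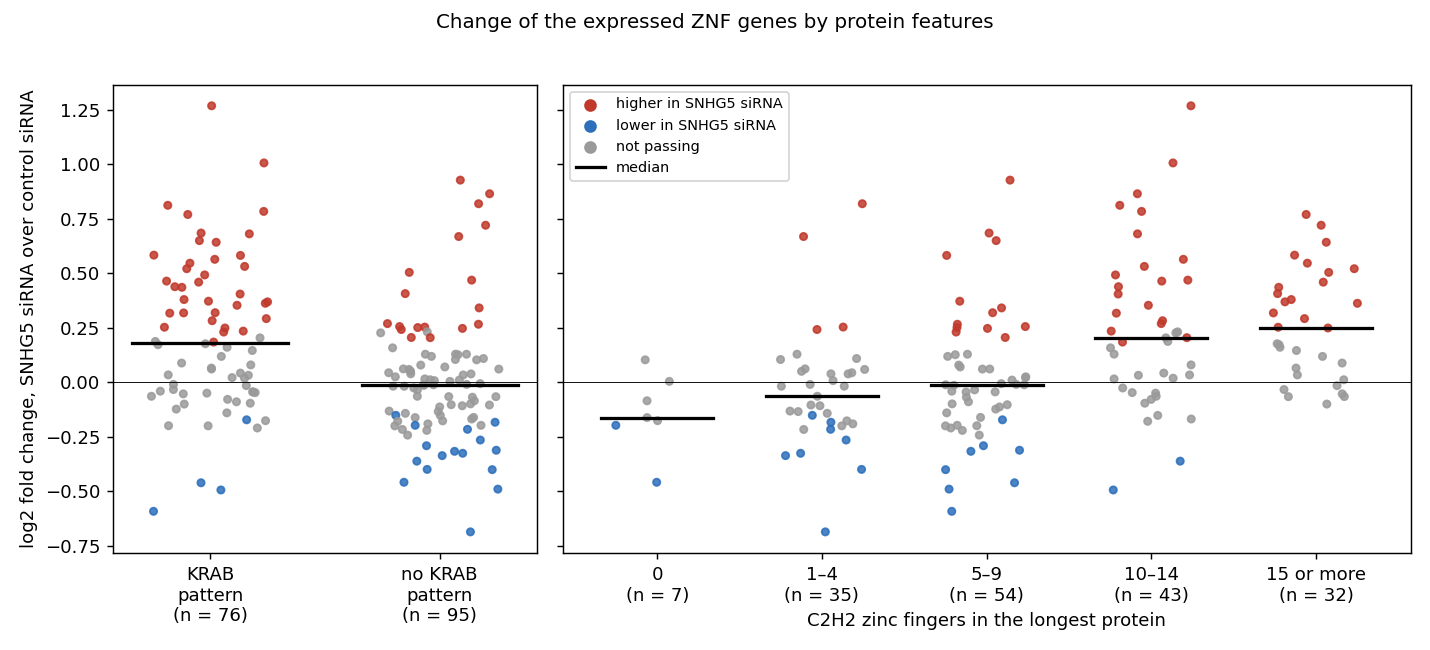
Log2 fold change, SNHG5 siRNA over control siRNA (y axes), of the 171 expressed ZNF genes split by KRAB pattern (left) and by number of C2H2 fingers (right); each point is 1 gene and each line a median. The median of the KRAB genes is 0.18 against -0.01 without the pattern, and with at least 15 fingers no gene was lower.

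Position in the genome gave a similar split. Of 51 members on chromosome 19, 24 (47.1%) were higher and 2 (3.92%) were lower, with a median log2 fold change of 0.19. Of 120 on other chromosomes, 30 (25%) were higher and 18 (15%) were lower, with a median of -0.00085. A cluster was set as at least 5 protein-coding ZNF genes with gaps of at most 500 kb, which gave 21 clusters, 18 of them with members. Of 70 members in a cluster, 35 (50%) were higher and 2 (2.86%) were lower. Of 101 in none, 19 (18.8%) were higher and 18 (17.8%) were lower. Among all tested genes at 10 CPM or more, 24.1% were higher and 20.2% were lower. With at least 10 CPM in each group, 25 of 57 members in a cluster were higher and 2 were lower, and on chromosome 19 17 of 42 were higher and 2 were lower, with a median of 0.08. Clusters differed from each other.

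In the cluster at chr19:19668796-24129961, which holds 37 ZNF genes, 8 of 9 members were higher and none was lower, with a median log2 fold change of 0.64; all 5 members there with at least 10 CPM in each group were higher, with a median of 0.53. The 8 were ZNF681, ZNF714, ZNF100 and ZNF254, described above, with ZNF85, ZNF675, ZNF43 and ZNF91. ZNF91, which binds and silences SVA retroelements, had the smallest rise among them. It had 22.3, 22.5 and 23.6 CPM with SNHG5 siRNA, against 19.7, 16.7 and 21.0 CPM with control siRNA (log2 0.25, SE 0.09, edgeR adjusted p = 0.0301). Its call was lost when control siRNA replicate 2 was left out, at a log2 fold change of 0.16 and an adjusted p of 0.191 in edgeR, and also without SNHG5 siRNA replicate 3 or control siRNA replicate 1. ZNF431, the member that did not pass, had 12.1, 10.6 and 10.6 CPM with SNHG5 siRNA, against 9.81, 9.34 and 9.65 CPM with control siRNA (log2 0.20, SE 0.10, edgeR adjusted p = 0.106), groups that did not overlap. A further 20 ZNF genes of the cluster were tested under the threshold of 10 CPM, of which 14 were higher and 0 were lower, with a median of 0.53.

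In the cluster at chr7:64045443-65401135, all 4 members were higher; 3 of them passed on FPKM with 1 added and after removal of a GC trend, and 2 on FPKM with no filter on low values. ZNF736 had 19.4, 18.8 and 18.1 CPM with SNHG5 siRNA, against 11.96, 12.7 and 12.8 CPM with control siRNA (log2 0.58, SE 0.08). ZNF92 had 20.2, 19.4 and 18.9 CPM with SNHG5 siRNA, against 14.6, 14.99 and 12.6 CPM with control siRNA (log2 0.46, SE 0.09). ZNF680 is described above, and ZNF107 had the smallest rise, at a log2 fold change of 0.29. Both tested genes of that cluster under the threshold, ZNF138 and ZNF273, were higher too. Smaller clusters gave ZNF141 and ZNF721 (chr4:53285-499156, log2 0.68 and 0.55) and ZNF84 and ZNF605 (chr12:132918308-133214831, log2 0.58 and 0.44), all of them higher and the only members there. ZNF141 and ZNF605 met the rule through the SNHG5 siRNA group alone.

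Other clusters differed in how far they shared this. In the cluster at chr7:149069643-149867479, 0 of 7 members passed, and their log2 fold changes were -0.21 to -0.01. In the cluster at chr19:57191500-58481230, the one with the most ZNF genes (43), 2 of 8 members were higher and 1 was lower. In that at chr19:51571298-53580269, where ZNF616 lies, 3 of 6 members were higher, namely ZNF766, ZNF83 and ZNF841, and 0 were lower. The cluster at chr19:8509678-9793180 had 3 of 6 members higher and 0 lower. That at chr19:43525497-44500524 had 2 of 6 higher and 0 lower. Among the higher members of these chromosome 19 clusters, ZNF766, ZNF776, ZNF559 and ZNF227 met the rule through the SNHG5 siRNA group alone. Neighbours in a cluster share sequence, and 47 members shared at least 1% of 50-base words, taken as for ZNF100, with transcripts of other genes. Of these 20 (42.6%) were higher and 3 (6.38%) were lower, against 34 (27.4%) and 17 (13.7%) of the 124 that shared less. Over tested genes at 10 CPM or more, 24.1% were higher and 20.2% were lower. Of the 20, ZNF681, ZNF100, ZNF766, ZNF141 and ZNF85 met the rule through the SNHG5 siRNA group alone. So did ZNF41, ZNF559, ZNF605, ZNF776, ZNF227 and ZNF343 of the 34. The most shared were ZNF286A at 55.5%, ZNF587 at 20.2% and ZNF562 at 17.5%, none of which passed. The exons of 82 members overlap those of another annotated gene. Of these 82, 24 (29.3%) were higher and 10 (12.2%) were lower, against 30 (33.7%) and 10 (11.2%) of the 89 with no such overlap. On the opposite strand the overlaps include ZNF146 with ZNF565 and ZNF473 with VRK3.

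**Figure D4:**
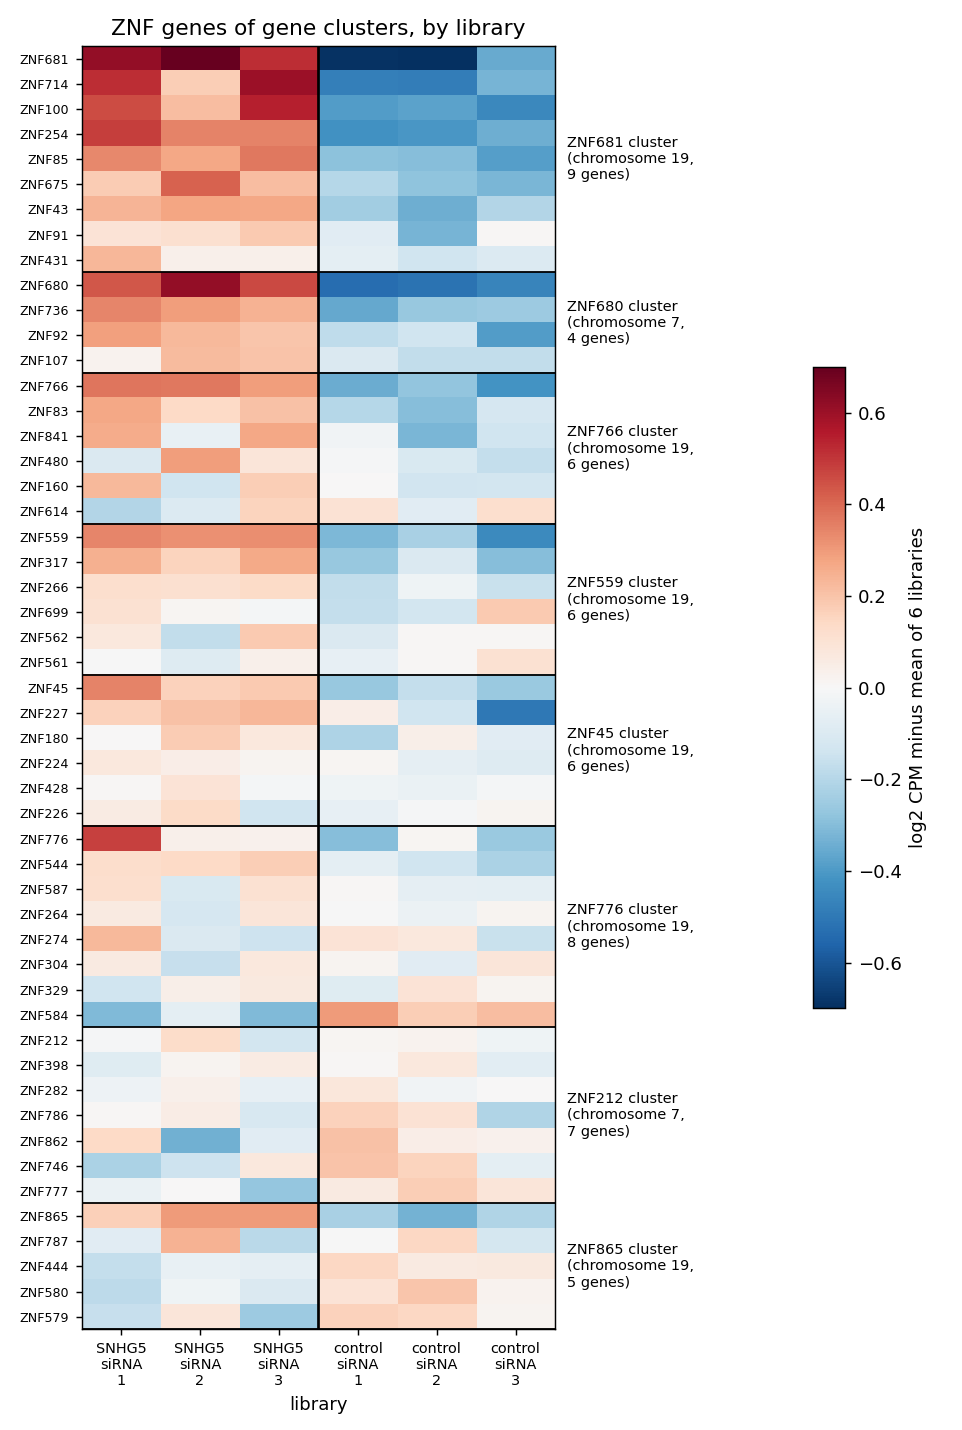
Log2 CPM minus the gene's mean over the 6 libraries (colour, cut at 0.7 either way) for the members of the 8 clusters with at least 4 members; columns are libraries, SNHG5 siRNA left of control siRNA, and clusters are named by their top gene. In the ZNF681 and ZNF680 clusters nearly every gene is higher in the SNHG5 siRNA libraries, and in the ZNF212 cluster of chromosome 7 none of 7 genes passed.

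Promoters of the chromosome 19 and chromosome 7 clusters, in which most members rose, share a stretch of letters. Of the members, 149 matched a promoter in the RefSeq table (GRCh38.p14), which gives 250 bases before to 50 after each gene's start. The 12-base word found in the most member promoters was GCGGGGCCTTTG, read on the gene's own strand, in 11 promoters; 9 words were tied at 11 and this one was in the fewest others. The 11 windows are shown because they carry that shared block. Letters run 5′ to 3′, capitals mark the word, and a window ends at most 30 bases past the gene's start. They are given from the largest rise to the lowest log2 fold change.
ZNF681, chr19:23758875-23758942, minus strand: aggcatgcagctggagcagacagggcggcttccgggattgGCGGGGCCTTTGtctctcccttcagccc
ZNF680, chr7:64563055-64563122, minus strand: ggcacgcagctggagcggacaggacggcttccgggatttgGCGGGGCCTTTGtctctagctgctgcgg
ZNF714, chr19:21082152-21082219, plus strand: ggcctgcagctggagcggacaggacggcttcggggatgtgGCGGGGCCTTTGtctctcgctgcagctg
ZNF254, chr19:24087142-24087209, plus strand: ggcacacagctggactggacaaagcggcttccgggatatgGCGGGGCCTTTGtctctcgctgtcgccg
ZNF85, chr19:20923206-20923273, plus strand: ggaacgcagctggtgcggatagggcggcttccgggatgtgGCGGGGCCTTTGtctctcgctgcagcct
ZNF736, chr7:64313938-64313990, plus strand: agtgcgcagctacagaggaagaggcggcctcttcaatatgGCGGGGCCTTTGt
ZNF43, chr19:21836166-21836233, minus strand: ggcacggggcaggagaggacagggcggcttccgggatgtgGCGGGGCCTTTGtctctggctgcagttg
ZNF92, chr7:65373804-65373871, plus strand: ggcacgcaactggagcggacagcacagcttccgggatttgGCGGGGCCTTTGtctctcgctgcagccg
ZNF107, chr7:64666088-64666155, plus strand: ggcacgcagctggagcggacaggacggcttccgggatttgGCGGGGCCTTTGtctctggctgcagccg
ZNF431, chr19:21141989-21142056, plus strand: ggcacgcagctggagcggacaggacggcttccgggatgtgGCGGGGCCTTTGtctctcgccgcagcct
ZNF195, chr11:3379146-3379213, minus strand: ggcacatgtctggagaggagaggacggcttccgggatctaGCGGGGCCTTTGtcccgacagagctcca

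Of these 11 genes, 9 were higher and none was lower, while ZNF431 and ZNF195 did not pass. They include 6 of the 9 members of the chromosome 19 cluster and all 4 of the chromosome 7 cluster. In 9 of the 11, the bases before the word also hold CTTCCGG, the reverse of CCGGAAG, the core letters of ETS-family sites. The word began 11 bases before the gene's start in ZNF681 and 17 bases past it in ZNF736. Searched on both strands, it was in 11 of 149 member promoters (7.38%) and 7 of 217 promoters of tested ZNF genes under the threshold (3.23%). It was in 21 of 14776 promoters of protein-coding genes (0.142%) and 23 of 27305 promoters in the table (0.0842%). It was in 19.6% of the 46 promoters of members that rose, 0 of the 20 of members that fell, and 2.41% of the 83 of members that did not pass. Of the 11 genes, ZNF681, ZNF85 and ZNF431 met the rule through the SNHG5 siRNA group alone. The shares among members that rose, here and for the words below, include genes of that kind and were not computed without them. The words were chosen after the values were seen, and a match is a description of letters only.

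The longer stretch before ZNF681 is shown because it holds the block and a CCAAT word upstream of it.
ZNF681, chr19:23758862-23759141, minus strand: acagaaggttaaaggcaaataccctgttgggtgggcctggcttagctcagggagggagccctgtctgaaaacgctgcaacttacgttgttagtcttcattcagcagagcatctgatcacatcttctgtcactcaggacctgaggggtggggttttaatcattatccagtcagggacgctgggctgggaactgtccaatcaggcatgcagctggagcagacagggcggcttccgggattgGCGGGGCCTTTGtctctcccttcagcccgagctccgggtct

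CCAAT, on either strand, was in 65.2% of the promoters of members that rose, 25% of those that fell and 33.7% of those that did not pass. It was also in 58% of all KRAB member promoters, 57.6% of the promoters of tested ZNF genes under the threshold, all 9 promoters of the chromosome 19 cluster and 35.7% of all promoters in the table. CCGGAAG, on either strand, was in 45.7% of the promoters of members that rose, 8 of the 20 of those that fell and 39.8% of those that did not pass. Its share was 14.4% over the promoters of protein-coding genes and 10.7% over all promoters. GGGCGG, the core letters of SP-family sites, was in 52.2%, 12 of 20 and 66.3% of the same 3 sets. It was in 61.1% of all member promoters, against 59.5% of the promoters of protein-coding genes and 44.6% of all promoters. The searches were on both strands, so that a promoter was counted once, and CTTCCGG of the printed windows counts as a match of CCGGAAG.

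Of 13 members listed for a described part in activating or repressing genes, 4 were higher and 1 was lower, and the share called, 38.5%, was near that of all tested genes (40.2%, or 44.3% at 10 CPM or more). ZNF76, an activator close to ZNF143, had 27.8, 28.5 and 27.4 CPM with SNHG5 siRNA, against 23.1, 21.8 and 21.0 CPM with control siRNA (log2 0.34, SE 0.08, edgeR adjusted p = 0.00152). ZNF143 itself, which binds many promoters, had 20.01, 23.0 and 21.1 CPM with SNHG5 siRNA, against 19.6, 22.2 and 21.6 CPM with control siRNA, and these overlapped. ZNF367, described above, ZNF395 (log2 0.24, with groups that overlapped) and ZNF263 (log2 0.25) were the others that rose, and ZNF516 was the one that fell. The call of ZNF395 was lost without control siRNA replicate 3 (log2 0.18, edgeR adjusted p = 0.0889), and that of ZNF263 without SNHG5 siRNA replicate 2, without control siRNA replicate 1 and without control siRNA replicate 3 (log2 0.15, 0.22 and 0.24). ZNF217, ZNF281, ZNF148, ZNF24, ZNF282, ZNF219 and ZNF703 did not pass, with log2 fold changes of -0.13 to 0.13. Of these, ZNF24 passed without SNHG5 siRNA replicate 3 (log2 -0.19, edgeR adjusted p = 0.032), with upper quartile scaling (log2 -0.18) and after removal of a GC trend (log2 -0.21). ZNF219 passed on FPKM (log2 0.25) and after removal of a GC trend (log2 0.29).

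Of 17 members listed for a described part in chromatin or in control of retroelements, 4 were higher and 2 were lower, and the share called, 35.3%, was below those same shares of 40.2% and 44.3%. ZNF146 had 121.9, 125.6 and 117.5 CPM with SNHG5 siRNA, against 94.6, 101.7 and 105.7 CPM with control siRNA (log2 0.27, SE 0.06, edgeR adjusted p = 0.000909). ZNF592, a partner of the chromatin reader ZMYND8, had 49.6, 46.9 and 51.9 CPM with SNHG5 siRNA, against 43.4, 39.8 and 39.7 CPM with control siRNA (log2 0.27, SE 0.06). ZNF532 and ZNF687 belong to the same protein module. ZNF532 had 14.6, 9.61 and 12.7 CPM with SNHG5 siRNA, against 15.3, 15.2 and 15.4 CPM with control siRNA (log2 -0.32, SE 0.11, edgeR adjusted p = 0.032). SNHG5 siRNA replicate 2 was the lowest there, and without it the log2 fold change was -0.17 and the adjusted p 0.17 in edgeR; the call was lost without any single control siRNA library as well. ZNF687 did not pass, at a log2 fold change of -0.11.

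ZNF91 and ZNF202 were the others of that list that rose, and ZNF318 the other that fell. Those calls were near the threshold. ZNF202 (log2 0.23) lost its call without SNHG5 siRNA replicate 1 (log2 0.20) and without each control siRNA library, and ZNF318 (log2 -0.18) without SNHG5 siRNA replicate 1, control siRNA replicate 1 or control siRNA replicate 2. ZNF274, which brings SETDB1 to the 3′ ends of zinc finger genes, had 14.8, 11.8 and 11.4 CPM with SNHG5 siRNA, against 13.5, 13.3 and 11.4 CPM with control siRNA, and the groups overlapped. ZNF445, which protects imprinted marks, and ZNF638, which silences unintegrated retroviral DNA, did not pass (log2 0.04 and -0.02). Nor did ZNF644, ZNF462, ZNF827, ZNF512B, ZNF33A, ZNF33B and ZNF777. Without SNHG5 siRNA replicate 1 ZNF512B passed (log2 -0.36, edgeR adjusted p = 0.0266), and without SNHG5 siRNA replicate 2 so did ZNF33A (log2 0.25) and ZNF777 (log2 -0.26).

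Of 14 members listed for a described part in RNA, translation, ubiquitin or the spindle, 1 was higher and 5 were lower, and the share called, 42.9%, was near the same 40.2% and 44.3%. ZNF473, a subunit of the machinery that cuts histone pre-mRNA, had 14.2, 14.8 and 16.02 CPM with SNHG5 siRNA, against 10.8, 11.6 and 11.5 CPM with control siRNA (log2 0.41, SE 0.09, edgeR adjusted p = 0.00126). The falls were those of ZNF593 and ZNF365, described above, and of ZNF830, ZNF326 and ZNF106. Like ZNF365, ZNF830 met the rule through the control siRNA group alone. ZNF326, which links splicing to elongation by RNA polymerase II, had 74.97, 71.0 and 74.6 CPM with SNHG5 siRNA, against 84.1, 79.6 and 88.6 CPM with control siRNA (log2 -0.20, SE 0.06). ZNF106 had the most counts of any member, at 228.5, 205.2 and 233.3 CPM with SNHG5 siRNA, against 247.6, 239.3 and 251.7 CPM with control siRNA (log2 -0.15, SE 0.05). The calls were lost for ZNF830 without control siRNA replicate 2 (log2 -0.30), for ZNF326 without control siRNA replicate 3 (log2 -0.16) and for ZNF106 in 5 of 6 such fits, with a log2 fold change of -0.09 without SNHG5 siRNA replicate 2. ZNF598, the ubiquitin ligase of stalled ribosomes, and ZNF622, a factor of large ribosomal subunit assembly, did not pass (log2 -0.10 and 0.11). Nor did ZNF207, ZNF346, ZNF451, ZNF330, ZNF706 and ZNF277.

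Levels between genes are compared in FPKM, the authors' values scaled to gene length. The highest members were ZNF703, a transcriptional corepressor, at 48.5, 49.7 and 47.2 FPKM with SNHG5 siRNA and 42.8, 45.9 and 42.5 FPKM with control siRNA, and ZNF207, a spindle and kinetochore protein, at 44.8, 45.6 and 45.5 FPKM with SNHG5 siRNA and 44.6, 45.0 and 44.3 FPKM with control siRNA. Over the 6 libraries the ranges of these 2 overlapped, so their order is not set. ZNF703 did not pass on counts (log2 0.00, edgeR adjusted p = 0.961), while on log2 FPKM with 1 added limma gave 0.15 with an adjusted p of 0.0413. ZNF511 and ZNF593 followed at means of 30.8 and 29.5 FPKM, then ZNF428 at 21.7 and ZNF664 at 21.6 FPKM. Within each of these pairs the ranges overlapped. The range of ZNF593 also overlapped those of ZNF428 and ZNF664, and that of ZNF664 overlapped that of ZNF511, so the order between the pairs is not fully set. Of the 6 highest, ZNF664 was higher with SNHG5 siRNA and ZNF511 and ZNF593 were lower. The lowest members were ZNF141 at 0.532 FPKM and ZNF385D at 0.471 FPKM. The median member was at 2.69 FPKM and the median KRAB member at 2.15 FPKM, against 8.97 FPKM over tested genes at 10 CPM or more.

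The partners of KRAB proteins were read from a list of corepressor and heterochromatin genes, of which 37 were tested. Of these, 16 were higher and 7 were lower, with a median log2 fold change of 0.09, and 62.2% were called, against 40.2% of all tested genes and 44.3% of those at 10 CPM or more. With upper quartile scaling the split was 11 higher and 9 lower, and without SNHG5 siRNA replicate 3 the higher count was 10. TRIM28, the KRAB-binding corepressor, had 370.0, 396.9 and 368.9 CPM with SNHG5 siRNA, against 409.9, 422.6 and 377.0 CPM with control siRNA (log2 -0.10, SE 0.05, edgeR adjusted p = 0.164). The groups overlapped, and without SNHG5 siRNA replicate 2 TRIM28 passed (log2 -0.13, edgeR adjusted p = 0.0173). SETDB1 had 31.3, 27.3 and 32.8 CPM with SNHG5 siRNA, against 34.8, 35.5 and 35.2 CPM with control siRNA (log2 -0.21, SE 0.08, edgeR adjusted p = 0.0335). Its call was lost in 5 of 6 fits that left out a library, at a log2 fold change of -0.14 without SNHG5 siRNA replicate 2.

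Larger changes were seen in other genes of the list. SUV39H2, another histone H3 lysine methyltransferase of heterochromatin, had 32.9, 36.2 and 35.8 CPM with SNHG5 siRNA, against 22.9, 22.6 and 22.5 CPM with control siRNA (log2 0.62, SE 0.07, edgeR adjusted p = 2.22e-06). MORC3, an ATPase of nuclear bodies, had 25.5, 26.5 and 25.8 CPM with SNHG5 siRNA, against 37.3, 39.7 and 39.2 CPM with control siRNA (log2 -0.58, SE 0.07, edgeR adjusted p = 2.04e-06). In both genes the groups stood clear of each other. HELLS, a chromatin remodeller, FAM208A, a subunit of the HUSH silencing complex, and GATAD2A, a subunit of NuRD, rose with log2 fold changes of 0.50, 0.48 and 0.44. DNMT3B, a DNA methyltransferase, fell by 0.51 on the log2 scale.

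The changes of the members went with the base composition of their transcripts. GC content was taken from each gene's transcript with the longest coding sequence. Its median was 44.9% over the members, against 48.8% over all tested genes. Across the 171 members Spearman's rho between GC content and log2 fold change was -0.34, across the 76 KRAB members it was -0.52, across the other 95 it was -0.11, and over 12349 tested genes it was -0.23. These are descriptions across genes that share libraries, and GC content is also a feature of whole gene clusters. Of the 43 members with the lowest GC content (33.5 to 40.4%) 18 were higher and 5 were lower, or 41.9% and 11.6%, while of the 1580 tested genes at 10 CPM or more in that range of GC content 31.4% were higher and 12.5% were lower. Of the next 43 members 37.2% were higher and 2.33% were lower, against 28% and 14.3% of genes in that range, and of the 42 after them 28.6% were higher and 21.4% were lower, against 24.8% and 19.7%. Of the 43 members with the highest GC content (54.1 to 71.1%) 8 were higher and 5 were lower, or 18.6% and 11.6%, against 17.3% and 28.4% of genes in that range. In the lowest range, the higher genes ZNF681, ZNF100, ZNF141, ZNF85 and ZNF605 met the rule through the SNHG5 siRNA group alone. So did ZNF41, ZNF766, ZNF559, ZNF776 and ZNF227 in the next range, and ZNF343 in the range after that. The lower genes ZNF830, ZNF365 and ZNF778 met it through the control siRNA group alone. The shares and rho values were not computed without such genes. After a trend on GC content was removed over all tested genes, 46 members were higher and 21 were lower. KRAB members were then 30 higher and 5 lower, with a median log2 fold change of 0.13, and members of the chromosome 19 cluster around ZNF681 were 7 higher and 0 lower of 9.

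**Figure D5:**
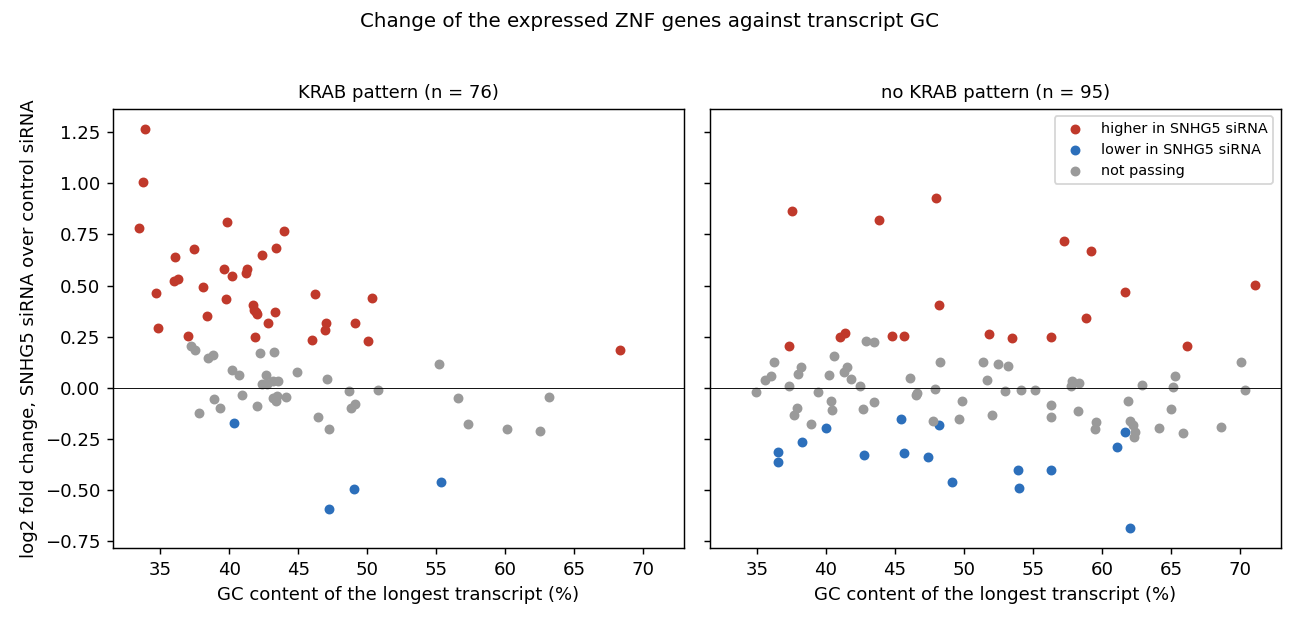
Log2 fold change, SNHG5 siRNA over control siRNA (y axis), against transcript GC content (x axis, percent) for the 76 KRAB members (left) and the other 95 (right). The transcript with the longest coding sequence was taken, though the axis reads longest transcript. Each point is 1 gene. Spearman's rho is -0.52 on the left, where the genes of lowest GC content include ZNF681, ZNF680 and ZNF254, and -0.11 on the right.

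ZNF genes below the threshold and related families were set beside the members. Of 256 tested ZNF genes under 10 CPM, with ZNF616 left out, 51 were higher and 13 were lower, with a median log2 fold change of 0.11. Over all 12508 tested genes 20.3% were higher and 19.9% were lower. Of 196 of the ZNF genes under 10 CPM with the KRAB pattern 46 were higher and 5 were lower. Of 59 without it 5 were higher and 8 were lower. Low counts limit the ZNF genes under the threshold, since their median mean level was 4.70 CPM. Of 47 tested genes of the ZBTB, ZSCAN, ZKSCAN and ZFP families at 10 CPM or more, 16 were higher and 9 were lower. Their median log2 fold change was 0.06. Those are 34% and 19.1%, against 24.1% and 20.2% of all tested genes at 10 CPM or more. Of the members 31.6% were higher and 11.7% were lower. Most genes of these families carry C2H2 fingers, in part with BTB or SCAN domains in place of KRAB, but no finger pattern was found in ZBTB8OS, counted as higher, or in ZFP36, counted as lower.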

How the data were processed

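RNA was measured by mRNA sequencing in 6 libraries. Per the submitters' processing notes, the authors used Trimmomatic and genome build GRCh38; the aligner, the counting program, its use of strand and the gene annotation are not stated in them or in the labels. The count table deposited held whole numbers for 20030 names, not normalised by the authors. The deposited table of FPKM held values scaled by the authors to gene length and library size, by a program not given in the sources used here. No table held columns of other samples.

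Counts were scaled by TMM (factors 0.998 to 1.003), and edgeR's filterByExpr kept 12508 genes, which were tested with edgeR 4.0.16 in R 4.3.3 (quasi-likelihood test, SNHG5 siRNA minus control siRNA, Benjamini-Hochberg adjusted p under 0.05 over all tested genes). CPM are counts over the library total. Alternatives were DESeq2 1.42.0, limma 3.58.1 on log2 FPKM, other scalings, filters and thresholds, GC and length trends, a replicate block and each library left out. The labels do not say that replicates were separate cultures, so each p reflects no more than the spread among these 6 samples, which may be technical.

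Of the names, 19266 matched GENCODE v29 (GRCh38), which gave coordinates, transcripts, GC content and overlaps. Fingers, KRAB and SCAN were found by letter patterns in its translated coding sequences, in place of RefSeq proteins; a pattern can miss a domain or match another protein, and BTB was not scanned. The KRAB pattern matched 368 genes, 26 of them with no finger. Promoters are RefSeq's. Python 3.11.15 with pandas 2.3.3, scipy 1.17.1 and matplotlib 3.10.9 was used.

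The members and lists were chosen with earlier results of these data known. Named genes are, of members that passed, the 8 largest rises and 8 largest falls, and further ZNF616, the 5 highest members in FPKM, the role lists, the 3 names on either side of the threshold, and of the corepressor list TRIM28, SETDB1 and the 6 largest changes; the lowest members in FPKM, members of the clusters shown, promoter words and carriers, and the called genes of small counts were named after their values were seen. One marker gene is not reported here.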

Additional observations from a re-analysis of the deposited data

How the results depend on the processing

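The signs of all 54 rises and 20 falls among the members held under each alternative that tested them. Of these calls, 39 rises and 12 falls held whichever single library was left out; the others had log2 fold changes of at most 0.37 in size for rises and 0.33 for falls. Leaving out each library gave 43 to 56 members higher and 14 to 22 lower, a median of 0.03 to 0.06, 2045 to 2874 and 1946 to 2734 of all tested genes, 39 to 55 and 8 to 11 ZNF genes under the threshold (here with ZNF616), 10 to 17 and 5 to 7 corepressor genes, and 13 to 19 and 8 to 10 genes of other families. Upper quartile scaling gave 31 members lower and a median of -0.0031. DESeq2 gave 7 lower ZNF genes under the threshold, and 49 members higher and 17 lower. On FPKM with 1 added, 1599 of all genes were lower, with 28 higher and 3 lower ZNF genes under the threshold; with 0.1 added, 1597, 29 and 3. With 1 added and no filter, 12 members, 1564 of all genes, 4 corepressor genes and 7 ZNF genes under the threshold were lower, and 10 genes of other families were higher. At a threshold of 5 CPM, 92 of 289 ZNF genes were higher (median 0.0722); at 20 CPM, 22 of 92 were higher and 13 lower (median 0.0060). The cause of these shifts was not tested. Same-numbered libraries had deviations that correlated at 0.0463, 0.130 and 0.0264, and differently numbered ones at -0.116 to 0.0843. Not every library correlated best with its own number. These values cannot decide whether the numbers pair the samples. With a replicate block 56 members were higher and 26 lower, and of all tested genes 2850 were higher and 2864 lower.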
